A study of Mus musculus with 20 samples.

Results

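The 10 genes described here encode enzymes that make, modify or consume nicotinamide adenine dinucleotide (NAD). They are Nampt, Naprt, Nmnat1, Nmnat2, Nmnat3, Nadk, Nnmt, Cd38, Bst1 and Parp1, taken by symbol from the 51789 genes of the deposited table. RNA was sequenced from 2 compartments of the intervertebral disc of aged BL6 mice: nucleus pulposus (NP), its soft centre, and annulus fibrosus (AF), the layered collagen ring that encloses the centre. The series concerns SIRT6, a NAD-dependent deacylase of chromatin, and the compound MDL-800, which its title presents as an activator of that enzyme. The comparisons ask which of these transcripts differ with the compound within each tissue and between the tissues under each treatment.

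There were 4 groups of 5 libraries, all from BL6 mice of 24 months of age. NP vehicle (libraries 1, 2, 3, 5 and 6) and AF vehicle (8, 9, 10, 12 and 13) came from mice injected weekly into the peritoneum with DMSO for 6 months, starting at 18 months of age. NP MDL-800 (15, 18, 19, 20 and 22) and AF MDL-800 (25, 27, 28, 29 and 30) came from mice given MDL-800 in the same amount of DMSO, so every mouse had received DMSO and no group was left uninjected. The labels call the material primary cells, while the protocol describes tissue dissected under a microscope. The dose, the sex of the mice and whether a library was 1 mouse or a pool are not given in the sources used here. P-values therefore measure the spread between these libraries, which may in part be technical.

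NAD carries electrons in metabolism and is also split by enzymes that use its ADP-ribose part, releasing nicotinamide. Most tissues rebuild NAD from that nicotinamide: NAMPT joins it to a phosphoribosyl group, the slow step of this salvage route, and an NMNAT enzyme then completes the dinucleotide. Sirtuins, poly-ADP-ribose polymerases such as PARP1, and the ecto-enzymes CD38 and BST1 all draw on the same pool.

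Levels are given as scaled FPKM, the deposited FPKM (fragments assigned to a gene, per kilobase of its length and per size of the library) divided by 1 factor a library, so levels of different genes can be set side by side. Differences are on the scale of log2(scaled FPKM + 1), which understates the change of genes with low values. A gene is called higher or lower where limma gave it an adjusted p under 0.05 over the 16383 genes tested. Of the 10 enzymes 9 were tested. Nmnat2 reached 1 FPKM in 3 libraries and fell below the filter, which asked for 1 FPKM in at least 5 of the 20 libraries.

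The depth read from the steps of low values was 12.65 to 22.0 M fragments (megafragments) per library. The tissue labels held against markers: 7 of 8 NP markers were higher in NP in both tissue comparisons, and 7 of 8 AF markers were lower in NP in vehicle libraries and 6 of 8 in MDL-800 libraries. Summed NP markers were at 27791 to 35984 scaled FPKM in NP libraries and at 3029 to 16238 in AF libraries. AF vehicle library 9 had the highest sum of NP markers among AF libraries. All 64 tested markers of 11 neighbouring cell types (blood and immune cells, osteoclasts, bone, muscle, fat, nerve and endothelium) were lower in NP in both tissue comparisons. In bulk tissue, fewer cells of a type and less RNA per cell cannot be told apart.

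Between the tissues, 5 of the 9 tested enzymes were lower in NP and 0 were higher under each treatment. Over all genes tested, limma called 33.9% lower and 21.8% higher in NP under vehicle, and 37.2% lower and 25.6% higher under MDL-800. That balance depends on the scaling: 3577 genes were higher and 5550 lower under vehicle, against 6474 and 3923 after quantile normalization, and 4188 and 6102 under MDL-800, against 6919 and 4290. Nadk, Nnmt, Cd38 and Bst1 were called in both comparisons and in every alternative run. Nmnat3 was called only under vehicle and Nampt only under MDL-800, and the change of this tissue difference with treatment was not called for either gene (limma adjusted p = 1 for both). In both cases the tissues did not overlap for those 5, where 25.9% of all genes were lower in NP without overlap under vehicle and 30.5% under MDL-800. The median difference of the 9 enzymes was -0.51 under vehicle and -0.58 under MDL-800, against -0.08 over all genes tested in each. Nnmt and Cd38 passed the filter only through their AF libraries, so these counts and medians describe the list and support nothing about it.

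With MDL-800, 0 of the 9 tested enzymes were called in NP, where limma called 41 genes of 16383, or 0.250%, and 2311 genes had an unadjusted p under 0.05. In AF 0 of 9 were called, with 0% of all genes called by limma and 270 genes at an unadjusted p under 0.05. The difference between the treatment effects was called by limma for 0 of 9 and for 0% of all genes, with 611 at an unadjusted p under 0.05. The plot of the 10 transcripts by library shows both patterns.

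**Figure D1:**
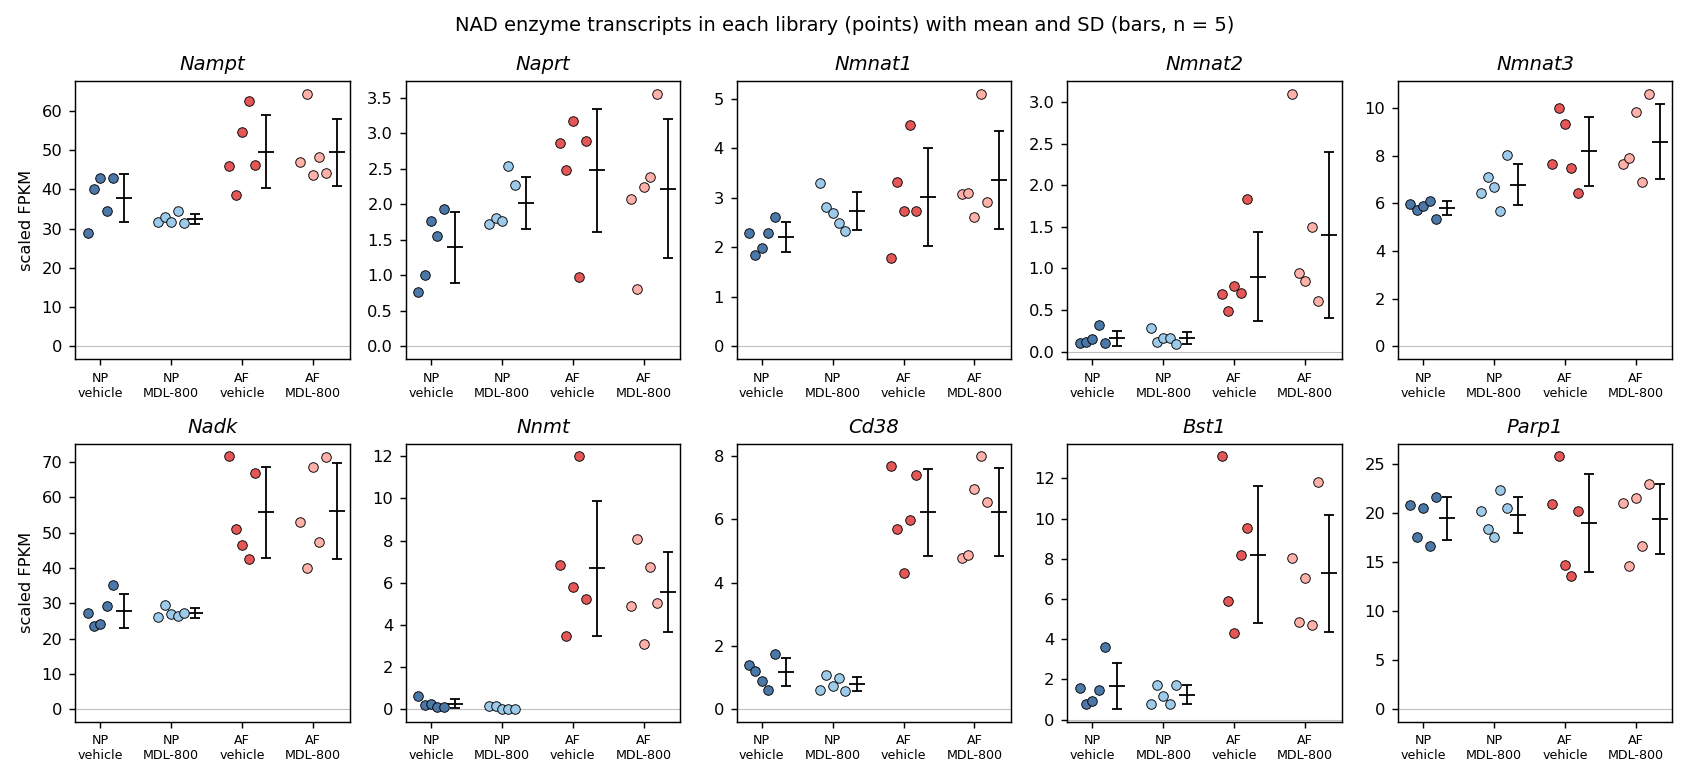
Scaled FPKM (vertical axes, each including 0) of the 10 enzymes in each of the 20 libraries, by group. Points are libraries and bars are the mean ± SD (n = 5), left out for Nnmt in NP MDL-800, where 3 libraries are listed at 0. Nadk, Nnmt, Cd38, Bst1 and Nmnat2 show no overlap between tissues, and the group means of Parp1 lie between 19.0 and 19.8.

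To show what lies before genes with different behaviour, the 250 bases upstream of the RefSeq start are printed for Nampt (the rate-limiting salvage enzyme), Cd38 (far lower in NP) and Parp1 (level between tissues). RefSeq entries on GRCm38.p6 matched 7 of the 10 enzymes. All 3 windows are on the plus strand, at chr12:32820085-32820334 for Nampt, chr5:43868559-43868808 for Cd38 and chr1:180568641-180568890 for Parp1. Capitals mark the GC box GGGCGG and the E-box CACGTG on either strand. The TATA box letters TATAAA were also searched for and were in none of the 3.
Nampt: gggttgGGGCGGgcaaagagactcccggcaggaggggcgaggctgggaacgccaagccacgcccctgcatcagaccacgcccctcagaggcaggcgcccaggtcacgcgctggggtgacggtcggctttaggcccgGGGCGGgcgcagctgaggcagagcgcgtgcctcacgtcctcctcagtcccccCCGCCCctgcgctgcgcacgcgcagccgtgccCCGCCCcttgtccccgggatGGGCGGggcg
Cd38: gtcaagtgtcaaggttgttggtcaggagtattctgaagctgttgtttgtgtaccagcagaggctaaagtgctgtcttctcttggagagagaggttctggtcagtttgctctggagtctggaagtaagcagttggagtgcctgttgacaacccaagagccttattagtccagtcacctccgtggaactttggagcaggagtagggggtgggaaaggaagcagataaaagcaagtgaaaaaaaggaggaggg
Parp1: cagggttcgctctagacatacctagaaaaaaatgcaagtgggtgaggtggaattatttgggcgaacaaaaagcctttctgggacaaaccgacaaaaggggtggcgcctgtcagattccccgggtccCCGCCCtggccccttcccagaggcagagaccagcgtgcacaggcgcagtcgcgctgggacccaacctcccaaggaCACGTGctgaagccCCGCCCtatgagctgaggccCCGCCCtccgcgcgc

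The Nampt window had 75.6% G and C, 27 CpG dinucleotides and 5 GC boxes. The Parp1 window had 61.6% G and C, 16 CpG dinucleotides, 3 GC boxes and 1 E-box. Of the 3 windows printed, that of Cd38 was the lowest, with 48.8% G and C, 1 CpG dinucleotide and none of the 3 motifs. Among windows not printed, Nmnat3 (45.6%) and 1 Nadk window (46.8%) had less G and C. That Nadk window and the Nmnat2 window also held none of the 3 motifs. Among 32851 RefSeq windows of the same length, 32.7% held a GC box, 6.02% an E-box and 12.4% a TATA box, and the median G and C content was 52.4%. These matches are descriptions of letters, and binding was not measured. In GENCODE M21 the Cd38 gene starts a few bases before its window and the Nampt gene also starts before its window, so both windows lie within the annotated gene.

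Nampt (ENSMUSG00000020572, chr12:32819545-32853349, plus strand) makes nicotinamide mononucleotide from nicotinamide and was the most abundant of the 10 enzymes in every NP library. In NP vehicle it was at 28.9, 40.2, 42.8, 34.5 and 42.8 scaled FPKM in libraries 1, 2, 3, 5 and 6, and in NP MDL-800 at 31.6, 32.9, 31.8, 34.4 and 31.5 in libraries 15, 18, 19, 20 and 22. In AF vehicle it was at 46.0, 38.5, 54.7, 62.5 and 46.3 in libraries 8, 9, 10, 12 and 13, and in AF MDL-800 at 47.0, 64.4, 43.6, 48.3 and 44.1 in libraries 25, 27, 28, 29 and 30. The treated NP libraries sat close together at the low end, all below every treated AF library, while vehicle NP and vehicle AF overlapped through AF library 9.

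The group means of Nampt were 49.6 ± 9.24 in AF vehicle, 49.5 ± 8.56 in AF MDL-800, 37.8 ± 6.04 in NP vehicle and 32.4 ± 1.22 in treated NP (SD, n = 5). In this order only AF MDL-800 and NP vehicle did not overlap. Nampt was lower in NP under MDL-800 (log2 difference -0.58, SE 0.11, limma adjusted p = 0.000714). Under vehicle the difference was -0.38 (SE 0.15, limma adjusted p = 0.0528), and it passed the threshold in 6 of 21 alternatives, with adjusted p between 0.0179 and 0.224. With MDL-800 the difference was -0.20 in NP (95% interval -0.43 to 0.03, limma adjusted p = 0.428) and 0.00 in AF (-0.34 to 0.34, adjusted p = 1).

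Naprt (ENSMUSG00000022574, chr15:75890956-75894481, minus strand) starts the parallel route from nicotinic acid and was present at a small share of the Nampt level. Scaled FPKM of Naprt were 0.761, 1.01, 1.76, 1.55 and 1.94 for NP vehicle libraries 1, 2, 3, 5 and 6. In NP MDL-800 it was at 1.72, 1.81, 1.77, 2.54 and 2.28 in libraries 15, 18, 19, 20 and 22. Vehicle libraries 1 and 2 were the low ones, and the other 3 overlapped the treated libraries.

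The difference of Naprt with MDL-800 in NP was 0.35 (SE 0.16, 95% interval 0.00 to 0.70), with an unadjusted limma p of 0.0495 and an adjusted p of 0.352. It did not pass. In AF it was -0.13 (95% interval -0.72 to 0.47, limma adjusted p = 1), and the difference between the treatment effects of the tissues was 0.47 (SE 0.32, adjusted p = 1). Within libraries, the ratio of Naprt to Nampt was 0.0252 to 0.0452 under vehicle in NP and 0.0545 to 0.0738 under MDL-800, without overlap. Of all genes tested, 4.50% did not overlap between the NP groups. That is a share of single genes, and no such share was computed for ratios of genes. The ratios of Nnmt, Nmnat1, Parp1 and Cd38 to Nampt, computed in the same way, overlapped between them. No test was run on the ratio of Naprt to Nampt, and the part in it of the library's G and C slope, given next, was not tested.

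Naprt moved with the dependence of a library on G and C content, and its transcript has 59.4% G and C against 40.3% for Nampt. For each library, log2 values less the mean of each gene over the 20 libraries were fitted on transcript G and C. Per 10 percentage points, the slope ran from -0.28 to -0.01 for NP vehicle libraries and from 0.02 to 0.09 for treated NP libraries. This slope is thus relative to the average library, and it did not overlap between the groups. It was lowest, at -0.28, in NP vehicle libraries 1 and 2, which also had the lowest Naprt. With this trend removed, the NP difference with MDL-800 was 0.15 for Naprt (limma adjusted p = 0.67) and -0.03 for Nampt (adjusted p = 0.972). In AF, vehicle library 12 and MDL-800 library 27 had the lowest slopes, -0.24 and -0.11, the highest Nampt (62.5 and 64.4) and the lowest Naprt (0.980 and 0.812). Within NP vehicle Nampt did not follow the slope. Libraries 1 and 2, at -0.28, had Nampt of 28.9 and 40.2. Libraries 3, 5 and 6, with slopes of -0.03, -0.05 and -0.01, had 42.8, 34.5 and 42.8. Another limit is that 277 bases of Naprt are identical to its same-strand neighbour Eef1d, a translation factor gene at a mean of 110 to 134 scaled FPKM by group. How shared reads were counted is not given in the sources used here, so the level of Naprt is uncertain.

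Between tissues Naprt was not called. Its means were 2.48 ± 0.871 in AF vehicle, 2.22 ± 0.977 in AF MDL-800, 2.02 ± 0.365 in NP MDL-800 and 1.40 ± 0.50 in NP vehicle (SD, n = 5), and each neighbouring pair in this order overlapped. The NP minus AF difference was -0.51 under vehicle (SE 0.23, limma adjusted p = 0.0766) and -0.04 under MDL-800 (SE 0.21, adjusted p = 0.89). Without AF vehicle library 12 the vehicle difference was -0.70 (adjusted p = 0.00605), a call that rests on leaving out that library. Quantile normalization turned both signs, to 0.04 and 0.50.

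The 3 NMNAT genes encode the last step of NAD assembly at different places in the cell: NMNAT1 in the nucleus, NMNAT2 at the Golgi and in axons, and NMNAT3, which is usually placed in mitochondria. Nmnat3 was the most abundant of them in all 20 libraries, and Nmnat1 was above Nmnat2 in each but AF MDL-800 library 25, where they were at 3.08 and 3.10. Nmnat3 (ENSMUSG00000032456, chr9:98287435-98420438, plus strand) had scaled FPKM of 5.96, 5.70, 5.88, 6.08 and 5.35 across NP vehicle libraries 1, 2, 3, 5 and 6, and stood at 7.65, 10.0, 9.33, 7.49 and 6.44 in AF vehicle libraries 8, 9, 10, 12 and 13. Every NP vehicle library was below every AF vehicle library.

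Nmnat3 was lower in NP than in AF under vehicle (log2 difference -0.42, SE 0.12, limma adjusted p = 0.0129). That call was lost under TPM scaling (-0.35, adjusted p = 0.0739) and quantile normalization (-0.05, adjusted p = 0.79). Under MDL-800 the NP libraries ran from 5.68 to 8.02 and the AF libraries from 6.91 to 10.6, and the difference of -0.29 (SE 0.13) had an adjusted p of 0.0702. It was called in 5 of 21 alternatives and turned to 0.05 under quantile normalization. With MDL-800, Nmnat3 differed by 0.19 in NP (95% interval -0.02 to 0.40, limma adjusted p = 0.415) and by 0.06 in AF (-0.27 to 0.39, adjusted p = 1). Neighbouring groups in the order of means, from AF MDL-800 (8.59 ± 1.56) through AF vehicle (8.18 ± 1.46) and NP MDL-800 (6.79 ± 0.865) to NP vehicle (5.80 ± 0.284), overlapped.

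Nmnat1 (ENSMUSG00000028992, chr4:149467572-149485202, minus strand) had an SD within AF larger than the difference between the tissue means. Its means were 3.36 ± 0.990 in AF MDL-800, 3.01 ± 0.984 in AF vehicle, 2.73 ± 0.377 in NP MDL-800 and 2.20 ± 0.301 in NP vehicle (SD, n = 5), with overlap at each step. The NP minus AF difference was -0.29 under vehicle (limma adjusted p = 0.17) and -0.21 under MDL-800 (adjusted p = 0.25), and quantile normalization turned these to 0.23 and 0.32. With MDL-800 it differed by 0.22 in NP (95% interval -0.02 to 0.46, limma adjusted p = 0.404) and by 0.13 in AF (-0.31 to 0.57, adjusted p = 1).

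The 2 AF libraries with the highest Nmnat1, vehicle library 12 (4.47) and MDL-800 library 29 (5.10), also had the highest sums of 6 skeletal muscle markers, 7447 and 8147 scaled FPKM. The other AF libraries had muscle sums of 753 to 3938 and Nmnat1 of 1.79 to 3.31. In NP, vehicle library 3 had the highest muscle sum (1020) and Nmnat1 of 1.99, where its group ran from 1.84 to 2.62. None of the 6 muscle markers was at 0 in any library, and the part of muscle RNA in the Nmnat1 values was not tested. A stretch of 200 bases of Nmnat1 is 95.5% identical to Zmynd8, and the gene overlaps Tmem274 on the other strand. Whether strand was used in counting is not given in the sources used here.

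Nmnat2 (ENSMUSG00000042751, chr1:152954993-153119261, plus strand) was scarce. It ran from 0.0927 to 0.325 scaled FPKM in the 10 NP libraries, an estimated 9.53 to 36.0 fragments per library. In AF it was at 0.690, 0.492, 0.792, 0.704 and 1.84 in vehicle libraries 8, 9, 10, 12 and 13, and at 3.10, 0.949, 0.849, 1.5 and 0.607 in MDL-800 libraries 25, 27, 28, 29 and 30. Every AF library was above every NP library. The NP minus AF difference was -0.68 under vehicle and -0.96 under MDL-800, each with a two-sided exact permutation p of 0.0079, the smallest that the 252 splits of 5 against 5 allow. This p is not adjusted and says only that the groups did not overlap. Of the genes tested with limma, 25.9% were lower in NP without overlap under vehicle and 30.5% under MDL-800. The differences with MDL-800 were 0.01 in NP (exact permutation p = 0.8333) and 0.29 in AF (exact permutation p = 0.3492).

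**Figure D2:**
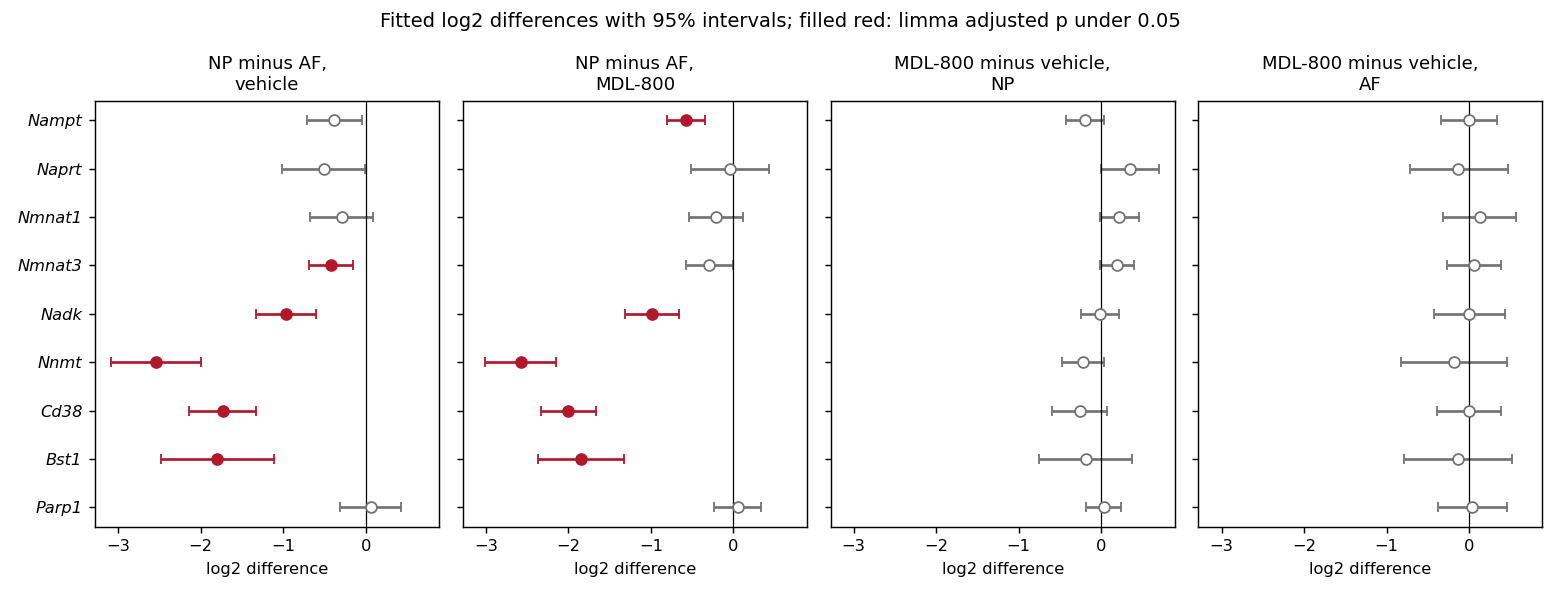
Fitted log2 differences (horizontal axes, on the scale of log2(scaled FPKM + 1)) of the 9 tested enzymes in the 4 comparisons, with 95% intervals from 5 libraries a group. Filled red points have a limma adjusted p under 0.05. The 5 filled points in each tissue panel lie below 0, from -2.54 to -0.42 under vehicle and from -2.58 to -0.58 under MDL-800, and no point is filled in the treatment panels.

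Nadk (ENSMUSG00000029063, chr4:155562378-155591001, plus strand) phosphorylates NAD to NADP in the cytosol and was lower in NP than in AF. Its scaled FPKM was 27.1, 23.6, 24.0, 29.3 and 35.2 for NP vehicle libraries 1, 2, 3, 5 and 6, and 26.1, 29.4, 26.9, 26.3 and 27.3 in NP MDL-800 libraries 15, 18, 19, 20 and 22. In AF it was at 71.6, 51.1, 46.6, 42.5 and 66.9 in vehicle libraries 8, 9, 10, 12 and 13, and at 53.1, 40.1, 68.5, 47.3 and 71.4 in MDL-800 libraries 25, 27, 28, 29 and 30. Every AF library exceeded every NP library, and AF libraries 8, 13, 28 and 30 stood above the rest.

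The mean of Nadk was 55.7 ± 12.8 in AF vehicle and 27.8 ± 4.73 in NP vehicle (SD, n = 5), a log2 difference of -0.96 (SE 0.17, limma adjusted p = 0.000579). Under MDL-800 the means were 56.1 ± 13.5 against 27.2 ± 1.31, a difference of -0.99 (SE 0.15, limma adjusted p = 0.00019). With the compound it differed by -0.02 in NP (95% interval -0.25 to 0.21, adjusted p = 0.962) and by 0.00 in AF (-0.43 to 0.44, adjusted p = 1).

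Nnmt (ENSMUSG00000032271, chr9:48591877-48605153, minus strand) methylates nicotinamide, which removes it from salvage, and showed the largest tissue difference of the 9 enzymes. It was at 6.86, 3.48, 5.81, 12.0 and 5.25 scaled FPKM in AF vehicle libraries 8, 9, 10, 12 and 13, and at 4.90, 8.08, 3.11, 6.75 and 5.05 in AF MDL-800 libraries 25, 27, 28, 29 and 30. In NP vehicle libraries 1, 2, 3, 5 and 6 it was at 0.60, 0.186, 0.263, 0.118 and 0.0987. Treated NP libraries 15 and 18 were at 0.169 and 0.158, and libraries 19, 20 and 22 are listed at 0. The highest NP library lay well below the lowest AF library.

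The estimated Nnmt fragments were 2.63 to 15.4 per library in vehicle NP and 0 to 4.74 in treated NP, so its level in NP is near the limit of this depth. The NP minus AF difference was -2.54 under vehicle (SE 0.25, limma adjusted p = 2.07e-05) and -2.58 under MDL-800 (SE 0.19, adjusted p = 2.36e-06). These sizes depend on the pseudocount: with 0.1 in place of 1 they were -4.31 and -5.20. With MDL-800, Nnmt differed by -0.22 in NP (95% interval -0.47 to 0.03, limma adjusted p = 0.415; -1.10 and adjusted p = 0.321 with the pseudocount of 0.1) and by -0.18 in AF (-0.82 to 0.46, adjusted p = 1). Nnmt was not called between the NP groups with either pseudocount. The parts of depth and of the spread between libraries in this were not tested.

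Cd38 and Bst1 encode related ecto-enzymes that split NAD or turn it into cyclic ADP-ribose. They are neighbours on mouse chromosome 5, Bst1 at chr5:43818885-43843986 (ENSMUSG00000029082) and Cd38 at chr5:43868553-43912375 (ENSMUSG00000029084), both on the plus strand and 24.6 kb apart. Both were far lower in NP than in AF.

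Cd38, a major NAD-consuming enzyme of immune cells, had scaled FPKM of 1.40, 1.22, 0.900, 0.611 and 1.75 across NP vehicle libraries 1, 2, 3, 5 and 6, and of 0.607, 1.07, 0.716, 0.995 and 0.587 in NP MDL-800 libraries 15, 18, 19, 20 and 22. In AF it was at 7.68, 5.70, 4.30, 5.99 and 7.41 in vehicle libraries 8, 9, 10, 12 and 13, and at 4.79, 4.86, 6.96, 7.99 and 6.54 in MDL-800 libraries 25, 27, 28, 29 and 30. The tissues did not overlap, and the treatments overlapped within each tissue. The NP minus AF difference was -1.73 under vehicle (SE 0.18, limma adjusted p = 3.06e-05) and -2.00 under MDL-800 (SE 0.15, adjusted p = 2.5e-06). With the compound Cd38 differed by -0.26 in NP (95% interval -0.60 to 0.07, limma adjusted p = 0.477) and by 0.00 in AF (-0.39 to 0.39, adjusted p = 1).

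Bst1, also known as CD157 and found on bone marrow stromal and myeloid cells, had scaled FPKM of 1.56, 0.774, 0.911, 1.47 and 3.62 across NP vehicle libraries 1, 2, 3, 5 and 6, and of 0.796, 1.74, 1.18, 0.751 and 1.72 in NP MDL-800 libraries 15, 18, 19, 20 and 22. In AF it was at 13.1, 5.91, 4.29, 8.21 and 9.53 in vehicle libraries 8, 9, 10, 12 and 13, and at 8.02, 4.84, 7.04, 4.70 and 11.8 in MDL-800 libraries 25, 27, 28, 29 and 30. NP vehicle library 6 stood above the other NP libraries and still below every AF library. The difference between tissues was -1.80 under vehicle (SE 0.31, limma adjusted p = 0.000599) and -1.85 under MDL-800 (SE 0.24, adjusted p = 6.27e-05). With MDL-800 Bst1 differed by -0.19 in NP (95% interval -0.75 to 0.37, limma adjusted p = 0.796) and by -0.14 in AF (-0.79 to 0.52, adjusted p = 1). The gene overlaps Fbxl5 on the other strand, and reads of the pair cannot be told apart unless strand was used in counting.

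Neutrophil markers were higher in AF, where Bst1, Cd38 and Nadk were higher too. The sum of 9 neutrophil markers was 202 to 3115 scaled FPKM in vehicle NP, 192 to 1668 in treated NP, 7279 to 19259 in AF vehicle and 6130 to 32948 in AF MDL-800. All 9 were lower in NP in both tissue comparisons, and none was at 0 in any library. NP vehicle library 6 had the highest neutrophil sum of the NP libraries (3115) and the highest Bst1 (3.62), Cd38 (1.75) and Nadk (35.2) among them. That library also had the highest NP sums of B and plasma cell (164), T and NK cell (13.0) and macrophage markers (84.8). AF libraries 8, 13, 28 and 30 had the 4 highest sums, 17264 to 32948, and the 4 highest Nadk levels. Bst1 did not follow that order within AF: library 28, with a sum of 17264, had 7.04, below the 8.21 of library 12 and the 8.02 of library 25, whose sums were lower. Nor did Cd38, which was highest in AF MDL-800 library 29 (7.99), where the neutrophil sum was 7861. The part of neutrophil RNA in these tissue differences was not tested. The lowest AF sum, 6130, was above the highest NP sum, so no AF library matches NP in these markers.

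**Figure D3:**
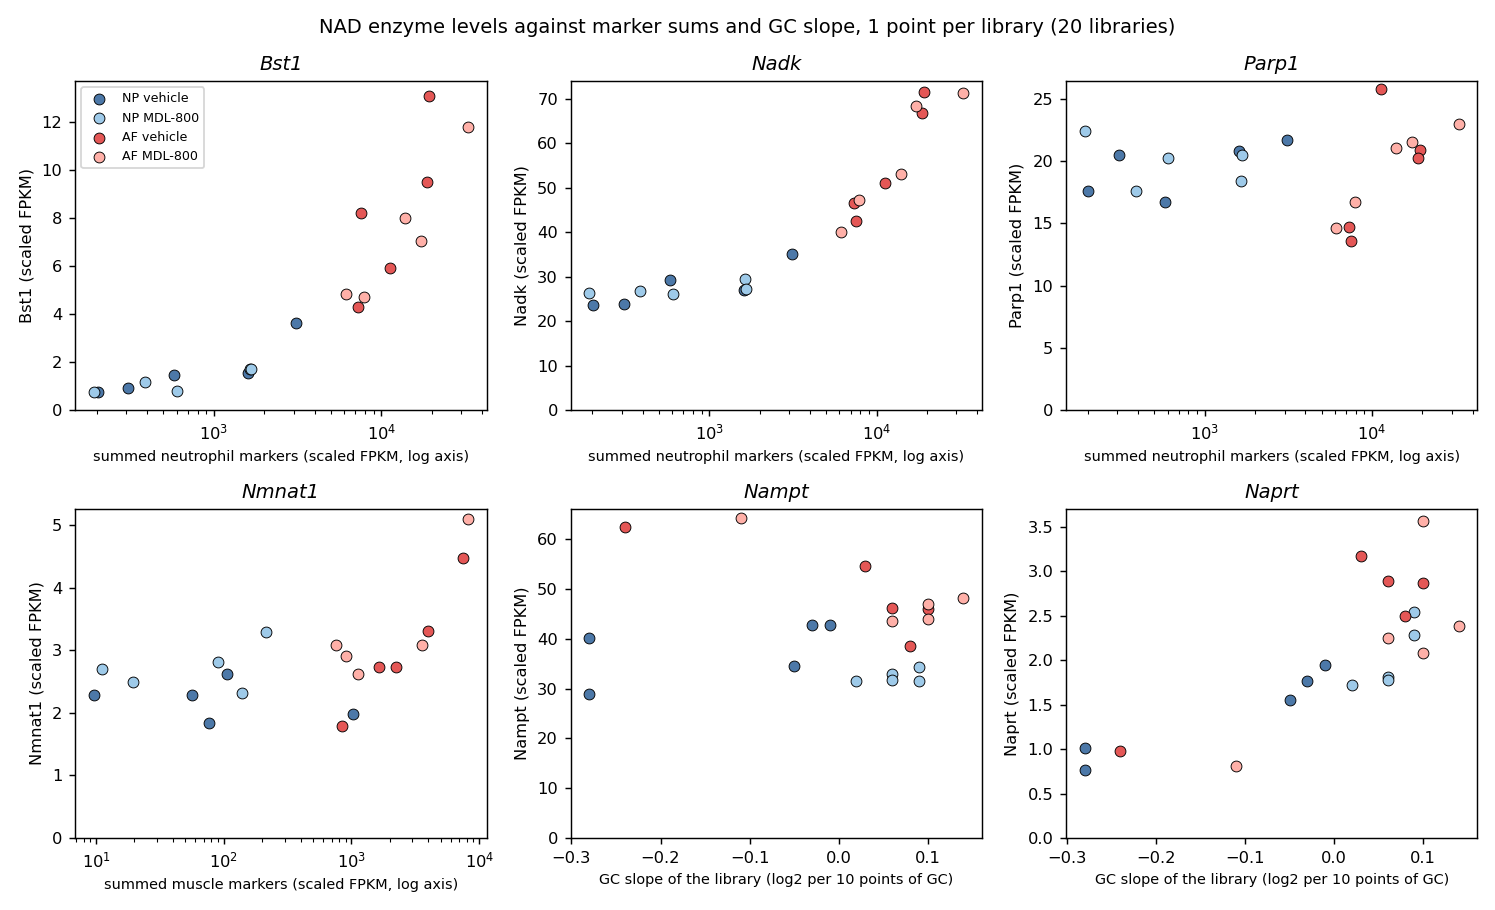
Scaled FPKM of 6 of the enzymes (vertical axes, from 0) in each of the 20 libraries against summed neutrophil markers (top row), summed muscle markers (bottom left) and the slope of the library on G and C content (bottom middle and right). Marker sums are on log axes. Nadk is highest in the 4 libraries with the highest neutrophil sums, Bst1 is highest in 3 of those 4, Nmnat1 is highest in the 2 libraries with the highest muscle sums, and Naprt is lowest in the libraries with the lowest slopes.

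Parp1 (ENSMUSG00000026496, chr1:180568924-180601254, plus strand) builds poly-ADP-ribose at DNA breaks and was the member with the most even level. Its means were 19.8 ± 1.86 in NP MDL-800, 19.5 ± 2.20 in NP vehicle, 19.4 ± 3.55 in AF MDL-800 and 19.0 ± 4.99 in AF vehicle (SD, n = 5), and all groups overlapped. The NP minus AF difference was 0.06 under vehicle (95% interval -0.31 to 0.43, limma adjusted p = 0.785) and 0.05 under MDL-800 (-0.24 to 0.33, adjusted p = 0.767). With the compound it was 0.03 in NP (-0.18 to 0.24, limma adjusted p = 0.934) and 0.04 in AF (-0.38 to 0.46, adjusted p = 1). Parp1 varied more among AF libraries, from 13.6 in vehicle library 12 and 14.6 in MDL-800 library 27 to 25.8 in vehicle library 9.

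Genes that followed each enzyme most closely were sought by Pearson's r of log2 values over the 20 libraries after the mean of each group was removed. Libraries of a tissue share its cell mixture, so r is a description. Nadk was most like Rhog and Pgd (0.95 each), the latter encoding phosphogluconate dehydrogenase, which makes NADPH from NADP. Bst1 was most like Tarm1 (0.94), an activating receptor of myeloid cells. Nmnat1 was most like Sync and the muscle microRNA host Mir133a-1hg (0.88 each). Nmnat3 was most like Acp1 and Fech (0.81 each), the latter encoding ferrochelatase of haem synthesis. Nampt was most like S100a4 and Ackr3 (0.86 each), Cd38 like Il1rl2 (0.84), Nnmt like 2010315B03Rik (0.85) and Parp1 like Acap1, Nmt1 and Tfr2 (0.87 each). Among pairs of the enzymes themselves, Nadk and Bst1 had an r of 0.79, and Parp1 had an r of -0.67 with both Nampt and Nnmt.

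Other genes of NAD metabolism were called between tissues and not between treatments. Of 46 genes in 7 lists 39 were tested. In the treatment comparisons limma called 0 of 39 in NP and 0 of 39 in AF. In NP against AF, 4 were higher and 17 lower under vehicle. Under MDL-800 the calls were 10 higher and 18 lower. These are 21 and 28 of 39 called, where limma called 55.7% of all genes under vehicle and 62.8% under MDL-800, and nothing particular to these genes is read from the counts. The filter passed 4 of the 39 through AF alone (Kmo, Acmsd, Nmrk2 and Enpp3), and a call of lower in NP is no support for their lists. Of the calls 11 of 21 and 18 of 28 held in every alternative run, and the others were lost in at least 1.

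All 3 enzymes that break down nucleotides outside the cell were called lower in NP under each treatment. Over all genes tested, limma called 33.9% lower under vehicle and 37.2% under MDL-800. Enpp3 was tested only through its level in AF, and nothing particular to this list is read from the count. Enpp1, a pyrophosphatase that can cleave NAD, was at 2.59 ± 0.947 scaled FPKM in NP vehicle and 58.7 ± 22.2 in AF vehicle (SD, n = 5), a difference of -3.99 (SE 0.32, limma adjusted p = 7.51e-06). Nt5e (CD73), which takes the phosphate off nicotinamide mononucleotide and AMP, was at 5.06 ± 0.890 against 43.3 ± 16.7, a difference of -2.78 (SE 0.27, limma adjusted p = 2.1e-05). Under MDL-800 the differences were -3.78 for Enpp1 and -2.67 for Nt5e.

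Of 6 genes of other synthesis routes and transport, 4 were lower in NP under each treatment, where 33.9% and 37.2% of all genes were. Pnp, a phosphorylase of nucleosides that also acts on nicotinamide riboside, was at 12.3 ± 4.31 in NP vehicle and 63.0 ± 9.89 in AF vehicle (SD, n = 5), a difference of -2.31 (SE 0.20, limma adjusted p = 9.49e-06). Slc25a51, the mitochondrial NAD carrier, differed by -0.91 (SE 0.10, adjusted p = 4.49e-05), Nmrk2 by -0.92 and Nadk2, the mitochondrial NAD kinase, by -0.52. Under MDL-800 the values were -2.37 for Pnp, -0.81 for Slc25a51, -1.24 for Nmrk2 and -0.72 for Nadk2. The vehicle calls of Nmrk2 and Nadk2 were lost under quantile normalization, with differences of -0.49 (limma adjusted p = 0.139) and -0.27 (adjusted p = 0.063). The kynurenine route makes NAD from tryptophan, and its list includes Acmsd, whose enzyme draws an intermediate away from NAD. In that list 4 of 9 genes were tested, and Kmo and Acmsd passed the filter only through AF. Under each treatment 3 were lower in NP, where 33.9% and 37.2% of all genes were. Nothing particular to this list is read from the count. Kmo had the largest difference, at -1.31 under vehicle and -1.35 under MDL-800. Quantile normalization ended the calls of the other two, Acmsd (-0.04 under vehicle and -0.15 under MDL-800) and Afmid (-0.10 and -0.52), and the MDL-800 call of Acmsd was lost in 9 alternatives in all. The untested genes Tdo2 and Ido2 of this route were listed at 0 in every NP library.

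Other NAD users were called in both directions. Under vehicle 3 of 14 were higher in NP and 5 lower, where limma called 21.8% and 33.9% of all genes. Under MDL-800 5 were higher and 6 lower, against 25.6% and 37.2%. Parp14, a mono-ADP-ribosyltransferase, was lower, with differences of -2.18 (SE 0.18, limma adjusted p = 8.47e-06) under vehicle and -2.00 under MDL-800, and so was Parp8, with -0.99 and -1.04. Tiparp, another mono-ADP-ribosyltransferase, was higher by 0.61 (SE 0.14, limma adjusted p = 0.00366) and 0.84, and Tnks, which encodes tankyrase, by 0.50 and 0.41. Parp3 was higher by 0.77 under MDL-800. Among 4 genes that remove ADP-ribose, Oard1 was higher in NP under both treatments (0.62 and 0.32) and Macrod1 under MDL-800 (0.79). The MDL-800 call of Oard1 was lost in 11 alternatives, among them TPM scaling (0.25, limma adjusted p = 0.0761) and no library factor (0.23, adjusted p = 0.114). Aox1, which oxidises the product of NNMT, was lower, with differences of -0.65 and -0.75, calls that were lost under quantile normalization.

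Among the sirtuins, Sirt6 was at 5.03 ± 1.33 scaled FPKM in vehicle NP, 8.49 ± 0.444 in treated NP, 4.73 ± 1.17 in AF vehicle and 5.55 ± 1.87 in AF MDL-800 (SD, n = 5). Its difference with MDL-800 was 0.68 in NP (limma adjusted p = 0.082) and 0.16 in AF (adjusted p = 1). Under vehicle 1 of 7 sirtuins was called between tissues (Sirt7, -0.68), where limma called 55.7% of all genes. Under MDL-800, where limma called 62.8% of all genes, Sirt6 (0.59), Sirt2 (0.47) and Sirt3 (0.40) were higher in NP and Sirt7 (-0.49) lower. Of these calls Sirt2 alone held in every alternative run. Sirt6 was lost with the replicate block (0.75, limma adjusted p = 0.0997), Sirt3 in several alternatives, and Sirt7 in several under either treatment.

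**Figure D4:**
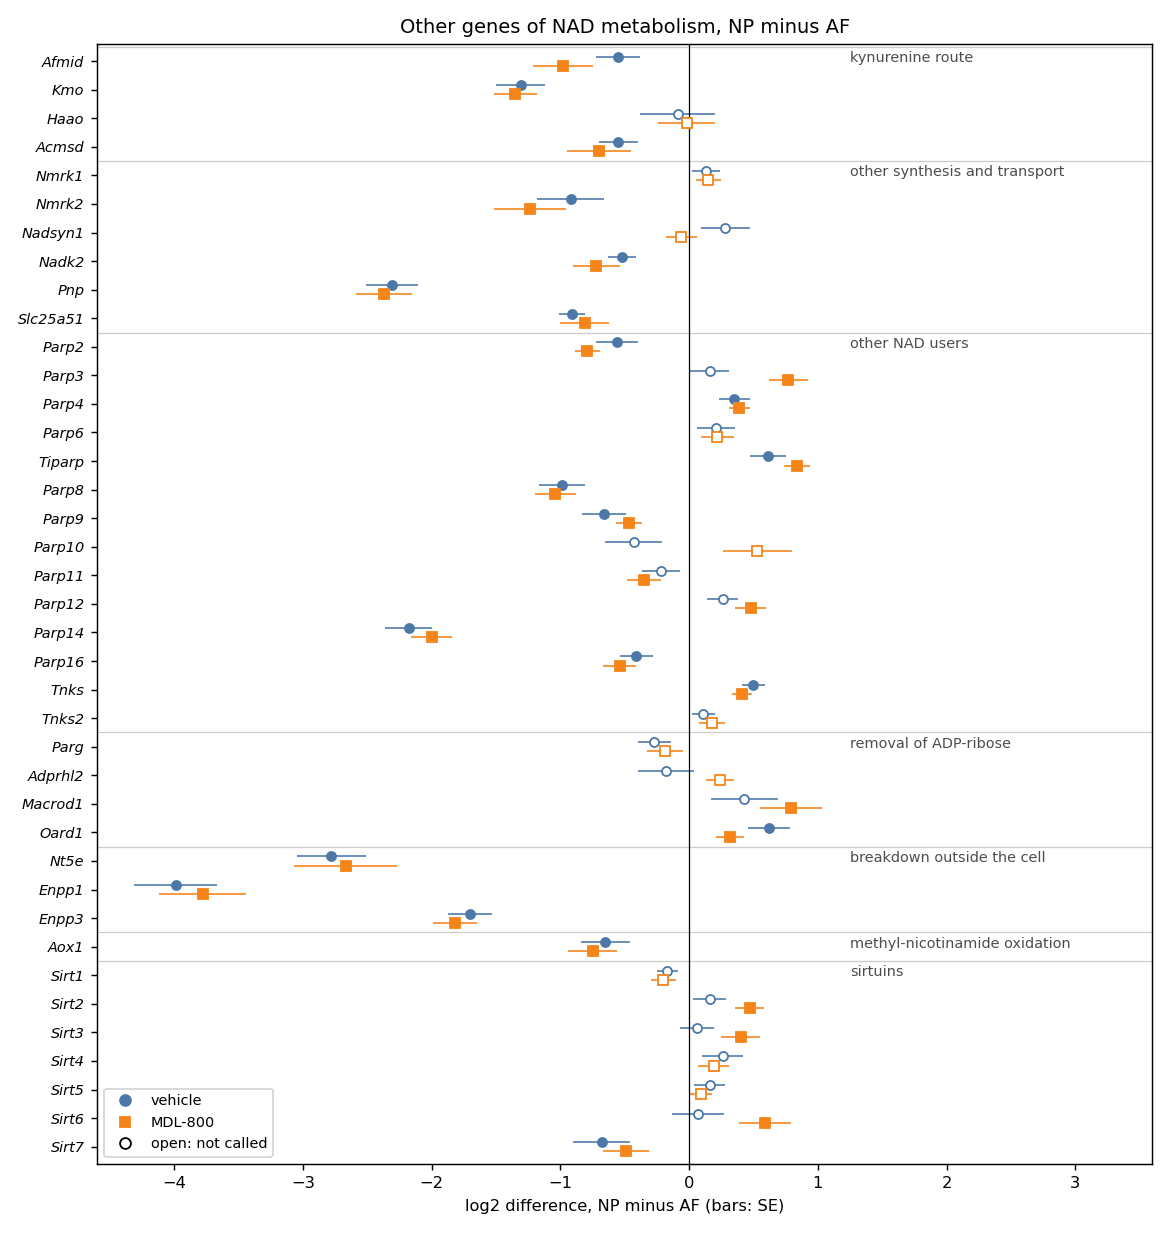
Log2 differences, NP minus AF (horizontal axis, on the scale of log2(scaled FPKM + 1)), of the 39 tested genes in 7 lists of NAD metabolism, under vehicle (circles) and MDL-800 (squares), with bars of 1 SE. Filled symbols have a limma adjusted p under 0.05. Enpp1 lies farthest below 0, at -3.99 and -3.78, and the highest value called is Tiparp under MDL-800 at 0.84.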

How the data were processed

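RNA was measured by stranded total RNA sequencing with ribosomal RNA removed, at an input of 50 ng and 14 PCR cycles, per the labels' protocols. The authors deposited 1 table of FPKM values for 20 libraries and 51789 genes, rounded to 2 decimals. STAR 2.7.11b and mm10 are named in the submitters' processing notes, and the counting program, its strand setting and the annotation are not given in the sources used here.

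FPKM values were divided by library factors (median ratio over 11308 genes, 0.933 to 1.06) and tested as log2(scaled FPKM + 1) with limma 3.58.1 in R 4.3.3 (trend, two-sided, Benjamini-Hochberg over 16383 genes that reached 1 FPKM in no fewer than 5 of 20 libraries). Each fit held only the groups compared, except the difference between tissues of the treatment effect, which used all 4. Nmnat2 was tested by exact permutation. No batch is given in the labels.

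Positions, G and C content and lengths came from GENCODE M21 (GRCm38), which holds 51596 of the gene identifiers. Shared sequence was searched with BLAST 2.17.0, at 95% identity over 200 bases. Depth was estimated from the steps of low values (84.8% to 89.5% within 0.25 of whole fragments), entered no test and covers counting error only. The test was checked on simulated data. Other work used Python 3.11.15.

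Alternatives were other pseudocounts, filters, scalings, fits and each library left out. The enzymes and lists were chosen with earlier results of these data known. Besides the 10 enzymes, the rule named, of each list and comparison, the 2 called genes with the largest rise and the 2 with the largest fall, Sirt6, and the 3 most similar genes. Fewer were named where fewer were called, and the most similar gene of Naprt is not reported here.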

Additional observations from a re-analysis of the deposited data

Results flagged for a closer look

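In 40 groups of 5 values (10 enzymes in 4 groups), 5 held a library far from the other 4. The measure was the gap from the extreme value to the next over the range, 0.722 to 0.808 in these 5. For normal values chance gives about 1 in 20 groups. The values are unlogged and all 5 lie at the high end, so no excess over chance is read from the count. Nampt was at 64.4 scaled FPKM in AF MDL-800 library 27, against 43.6 to 48.3 in the others. Nmnat1 was at 5.10 in AF MDL-800 library 29, against 2.62 to 3.09. Nmnat2 was at 0.325 in NP vehicle library 5 and at 1.84 in AF vehicle library 13, against at most 0.152 and 0.792 in the others of each group. Bst1 was at 3.62 in NP vehicle library 6, against 0.774 to 1.56. Library 27 also had a low slope on G and C content (-0.11), library 29 the highest muscle marker sum (8147) and library 6 the highest neutrophil marker sum of the NP libraries (3115). The part of these in the 3 values was not tested.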

How the results depend on the processing

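The calls of Nadk, Nnmt, Cd38 and Bst1 between tissues held in every alternative run under both treatments, and so did that of Nampt under MDL-800. Of 1027 recomputed values of the enzymes, 929 kept direction and side of the threshold, 13 passed it newly, 2 lost it (both Nmnat3 under vehicle) and 83 turned sign, none of these called in the reported fit.

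The number of genes called with MDL-800 in NP was 41, and it was 7 with no filter, 21 with a filter at 0.1 FPKM, 18 with no library factor, 70 after quantile normalization, 18 without the variance trend, 4 with all 4 groups in the fit and 2 to 189 with 1 library left out. In AF and for the difference of effects the count of 0 became 0 to 1 with 1 library left out. None of these calls was an enzyme described here.

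Quantile normalization moved the median of all genes from -0.08 to 0.20 under vehicle and 0.21 under MDL-800. It turned the NP minus AF difference of Nmnat1 to 0.23 under vehicle and 0.32 under MDL-800, of Naprt to 0.04 and 0.50, and of Nmnat3 under MDL-800 to 0.05. In AF with MDL-800 it gave -0.01 for Nampt, Nadk and Cd38. TPM scaling gave -0.05 for Parp1 with MDL-800 in NP, -0.02 for Parp1 between tissues under MDL-800, and -0.02 and 0.00 for the difference of treatment effects of Nmnat1 and Nmnat3. Without a library factor, Parp1 between tissues was at 0.00 under vehicle and -0.03 under MDL-800. Removing the trend on G and C gave -0.04 for Parp1 in NP and -0.01 for Nadk in AF with MDL-800, and 0.02 for the difference of effects of Bst1. Without AF vehicle library 12 and AF MDL-800 library 27, chosen after seeing the data, Nampt in AF was at -0.01 and the differences of effects at -0.05 for Nmnat1 and 0.00 for Parp1.

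With 1 library left out, the difference with MDL-800 in NP ran from -0.07 to 0.07 for Nadk, -0.32 to 0.03 for Bst1 and -0.02 to 0.07 for Parp1. In AF it ran from -0.10 to 0.09 for Nampt, -0.01 to 0.13 for Nmnat3, -0.32 to 0.07 for Naprt, -0.09 to 0.11 for Nadk, -0.35 to 0.03 for Nnmt, -0.10 to 0.08 for Cd38, -0.32 to 0.04 for Bst1 and -0.07 to 0.15 for Parp1. Between tissues it ran from -0.05 to 0.17 for Parp1 under vehicle, and under MDL-800 from -0.23 to 0.10 for Naprt and -0.04 to 0.11 for Parp1. For the difference of effects it ran from -0.03 to 0.22 for Nmnat1, -0.13 to 0.07 for Nadk, -0.25 to 0.13 for Nnmt, -0.23 to 0.17 for Bst1 and -0.13 to 0.09 for Parp1. The cause of these turns was not tested.

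The sample titles give every group different numbers and pair no libraries. The column names carry a number shared by NP and AF for 5 vehicle and 3 MDL-800 pairs, whose deviations correlated from -0.18 to 0.29 and from -0.18 to 0.17, and 1 NP library in each treatment correlated best with its own number. Whether the number marks an animal is not given in the sources used here, so NP and AF libraries may come from the same mice. The reported tissue tests treated them as independent. With that number as a replicate block, 8783 genes were called under vehicle and 7857 under MDL-800, against 9127 and 10290, and Naprt under MDL-800 was at 0.09. Depth limits Nnmt and Nmnat2 in NP most.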

Other observations

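Within libraries, the ratio of Nnmt to Nampt was 0.130 ± 0.0407 in AF vehicle and 0.111 ± 0.0258 in AF MDL-800 (SD, n = 5), against 0.00231 to 0.0208 in vehicle NP and 0 to 0.00535 in treated NP. The ratio of Cd38 to Nampt was 0.0317 ± 0.0130 in vehicle NP and 0.0244 ± 0.00617 in treated NP, and 0.130 in both AF groups (SD 0.0401 and 0.0394, n = 5). Parp1 per Nampt ran the other way, at 0.526 ± 0.111 in vehicle NP and 0.611 ± 0.0494 in treated NP against 0.410 ± 0.179 and 0.407 ± 0.121 in AF vehicle and AF MDL-800. These ratios do not depend on the library factor and were not tested.

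Several genes of the kynurenine route and its neighbours were below the filter and were not tested. Qprt, the last enzyme particular to that route, was at 0.0691 ± 0.0707 scaled FPKM in NP vehicle and 0.797 ± 0.329 in AF vehicle (SD, n = 5), and Kynu at 0.0281 ± 0.0312 and 0.551 ± 0.192. Sarm1, a NAD-cleaving enzyme of axons, was at 0.0253 ± 0.0406 in NP vehicle and 0.272 ± 0.0732 in AF vehicle.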
